A study of Mus musculus with 4 samples.

Results

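The genes described here are the translation factors and cytosolic aminoacyl-tRNA synthetases expressed by islet effector T cells sorted for their CD5 level. Members were the tested single-gene rows whose name begins with Eif, Eef or Etf1, or has the short form of a synthetase name ending in ars (Aars, Lars and the like, with Eprs added by name). This gave 76 of 7252 tested genes, namely 42 initiation factor genes, 8 elongation factor genes, 1 release factor gene, 18 synthetase genes, 4 genes for eIF4E-binding proteins and their transporter, the helicase gene Eif4a3, and 2 Argonaute genes that carry older eIF2C names. All 76 had a finite fold change, and every one of them entered the counts below. The tested genes Ptprs and Fbrs have the letter pattern of a synthetase name without the ending and were left out.

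Protein synthesis starts when eIF2 brings the initiator tRNA to the small ribosomal subunit and eIF4F, made of a cap-binding protein, a scaffold and a helicase, loads the mRNA, with eIF3 as the organizing platform. eIF2B recharges eIF2 with GTP, and the 4E-BPs hold the cap-binding protein eIF4E away from its scaffold unless mTOR phosphorylates them. Elongation factors then deliver aminoacyl-tRNAs, which the synthetases charge, and translocate the ribosome. T cells raise this machinery steeply when they leave quiescence.

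Both groups were effector T cells of NOD mice, a strain that develops autoimmune diabetes, of the genotype NOD.Foxp3-GFP, which reports the regulatory T cell factor Foxp3, at an age of 6 to 9 weeks. There were 2 CD5 high and 2 CD5 low libraries, the titles refer to islets, the tissue label names pancreatic islets and spleen, and no treatment is named. The sources used here do not give the sex, the number of animals behind a library, pooling or the sort gates. CD5, a surface receptor whose level follows the strength of self-recognition, was the sorting marker, and its gene Cd5 had 206 FPKM in CD5 high and 45.4 FPKM in CD5 low cells in the authors' deposited table.

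Values are FPKM (fragments per kilobase, scaled to the mapped total), with 1 combined value per group as the authors deposited it. The values therefore stand without SD, standard error or n, and library depth is unknown. A gene counts as changed when the authors' q-value was under 0.05. The cells expressed T cell genes in both groups: 7 of 8 listed T cell markers were tested and summed to 3060 FPKM in CD5 high and 2805 FPKM in CD5 low, with Cd3g at 857 FPKM in CD5 high and 744 FPKM in CD5 low and Cd4 at 243 FPKM in CD5 high and 248 FPKM in CD5 low. Each group is a bulk sample, so fewer cells of a type and less RNA per cell cannot be told apart.

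The translation machinery had closely similar transcript levels in CD5 high and CD5 low cells. None of the 76 genes changed by the test in the authors' deposited table, against 0.758% of all tested genes (0.538% higher and 0.221% lower in CD5 high), and none had a q under 0.10, against 1.28%. The smallest q among the members was 0.302. At an unadjusted p under 0.05 there were 5 members (6.58%), 3 with a higher and 2 with a lower value in CD5 high, where all tested genes had 10.3% (5.58% higher and 4.7% lower in CD5 high). The median log2 fold change was 0.01 over the members and -0.01 over all tested genes. A higher value in CD5 high was found for 40 members (52.6%), against 49.1% of all tested genes, and a lower one for 36 members, against 50.9%. A missed threshold does not show that levels were equal.

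The spread of the members was narrow as well. Their median absolute log2 fold change was 0.14, against 0.24 over all tested genes. Values within 1.2-fold of each other were found for 57 members (75%), against 53.1% of all tested genes, and values over 1.5-fold apart for 6 members (7.89%), against 14.8%. Members were more abundant than the average gene, with a median of 31.4 FPKM over the mean of both groups, against 20.5 FPKM. Among genes with a mean of at least 20 FPKM the median absolute log2 fold change was 0.12 over 53 members and 0.20 over 3703 tested genes. Among genes with a mean of at least 100 FPKM it was 0.10 over 18 members and 0.17 over 785 tested genes. The test had limited reach for shifts of this size: the smallest absolute log2 fold change called anywhere in the authors' deposited table was 0.73, which 2 members exceeded.

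**Figure D1:**
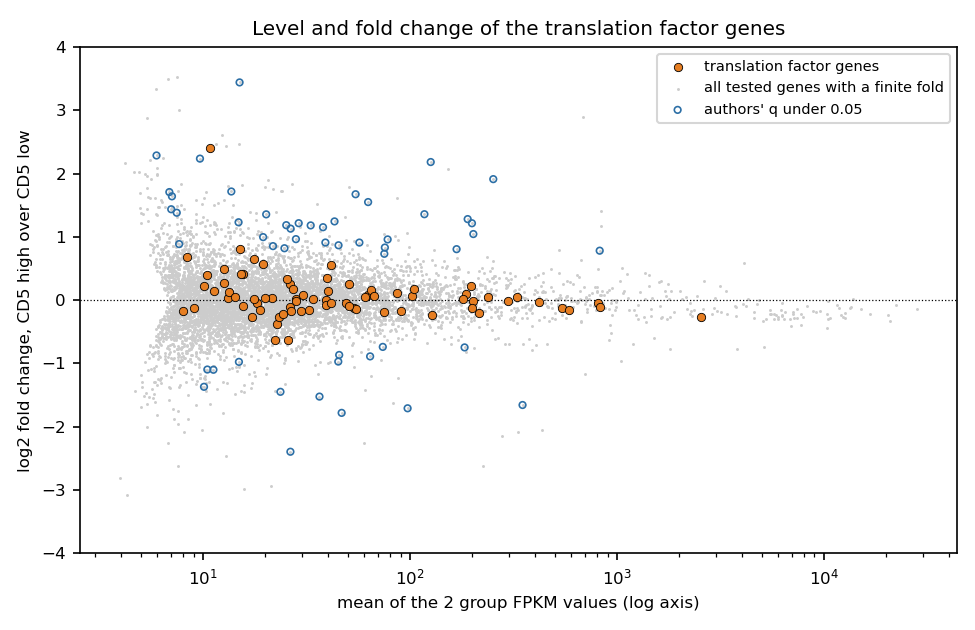
Log2 fold change (CD5 high over CD5 low, vertical axis) against the mean of the 2 group FPKM values (log axis) for the 76 translation factor genes (orange), all tested genes with a finite fold (grey) and genes with the authors' q under 0.05 (blue rings); 11 tested genes lie beyond 4 log2 units and are not drawn. Most orange points stay close to 0, the farthest from it being Eif4ebp1 at 2.40 and then Eif1a at 0.82, and none of the orange points carries a blue ring.

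The widest contrast among the members lay in a gene of eIF4E control, Eif4ebp1, and rests on the lowest CD5 low value of any member. The higher of the 2 group values was at least 6.82 FPKM for every tested gene. With 3.42 FPKM in CD5 low, Eif4ebp1 is among the tested genes through its CD5 high value alone. Its fold and its share of the pair below therefore carry no independent support. By absolute log2 fold change Eif1a (0.82), Aars (0.68) and Eif2b3 (0.65) came before the Eif4ebp2 and Eif4e genes described here. Eif4ebp1, which encodes 4E-BP1, a repressor of cap-dependent initiation, had 18.1 FPKM in CD5 high and 3.42 FPKM in CD5 low in the authors' deposited table (5.29-fold, log2 fold change 2.40, unadjusted p = 0.01505, q = 0.344). Its paralogue Eif4ebp2 had 20.2 FPKM in CD5 high and 31.3 FPKM in CD5 low in the authors' deposited table (log2 fold change -0.63, unadjusted p = 0.0424, q = 0.460). The paralogues thus lay in opposite directions, and neither passed the test over all genes. Eif4ebp1 made up 47.2% of the summed FPKM of the pair in CD5 high and 9.84% in CD5 low, while the sum itself was 38.4 FPKM in CD5 high and 34.8 FPKM in CD5 low. Eif4e, the gene of the cap-binding protein that both repressors bind, had 23.2 FPKM in CD5 high and 15.6 FPKM in CD5 low in the authors' deposited table (log2 fold change 0.57, unadjusted p = 0.03865, q = 0.450). The summed level of Eif4ebp1 and Eif4ebp2 was 1.65 times that of Eif4e in CD5 high and 2.22 times in CD5 low. This ratio is partial, because Eif4ebp3, given below, is not in the sum. Eif4ebp1 lies at chr8:27260327-27275656, Eif4ebp2 at chr10:61432497-61452669 and Eif4e at chr3:138526191-138557599 (mm10).

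Transcripts of other cells differed between the groups beside these genes. Of the 5 tested endocrine pancreas markers 3 had higher values in CD5 high, and the list summed to 2794 FPKM in CD5 high and 321 FPKM in CD5 low. The 3 were the insulin genes Ins2 (2395 FPKM in CD5 high and 26.7 FPKM in CD5 low) and Ins1 (368 FPKM in CD5 high and 4.003 FPKM in CD5 low), and the amylin gene Iapp (18.6 FPKM in CD5 high and 7.99 FPKM in CD5 low). The hormone genes of other islet cells lay the other way, with the somatostatin gene Sst at 6.86 FPKM in CD5 high and 263 FPKM in CD5 low (log2 fold change -5.26, q = 0.0714 in the authors' deposited table) and the pancreatic polypeptide gene Ppy at 5.63 FPKM in CD5 high and 19.4 FPKM in CD5 low. Of 13 exocrine pancreas markers 11 had lower values in CD5 high (sums of 1692 FPKM in CD5 high and 1852 FPKM in CD5 low). The 7 macrophage and dendritic cell markers summed to 627 FPKM in CD5 high and 1222 FPKM in CD5 low, with 6 of them lower in CD5 high and Fcer1g listed at 0 there. The 3 tested regulatory T cell markers all had higher values in CD5 high (321 FPKM against 149.6 FPKM in CD5 low). Among them, Foxp3 had 12.3 FPKM in CD5 high and 1.10 FPKM in CD5 low (q = 0.298 in the authors' deposited table). Of 15 cell cycle genes 13 were higher in CD5 high (527 FPKM against 359 FPKM in CD5 low). Changed were 2 regulatory T cell markers, 4 cell cycle genes and Ins1, all higher in CD5 high. Lower and changed were 5 macrophage and dendritic cell markers and 1 exocrine marker. Of all tested genes 0.758% changed. Of 4 B cell markers only Cd79b was tested, at 14.0 FPKM in CD5 high and 10.96 FPKM in CD5 low. The part of any of these cell types or of cell division in the levels of Eif4ebp1, Eif4ebp2 and Eif4e was not tested.

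**Figure D2:**
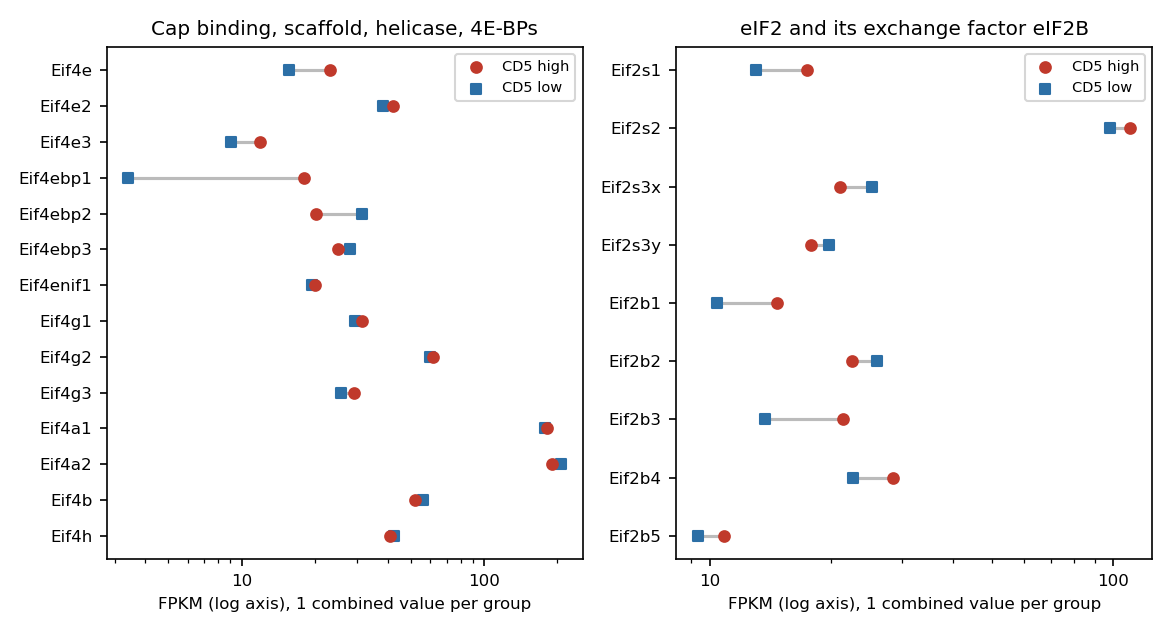
FPKM (log axis, 1 combined value per group) of the eIF4 group and the 4E-BP genes (left) and of the eIF2 and eIF2B subunit genes (right), with CD5 high as red circles and CD5 low as blue squares. Eif4ebp1 has the longest line, with 18.1 FPKM in CD5 high and 3.42 FPKM in CD5 low, while Eif4a1, Eif4g1 and Eif4g2 have nearly coinciding points.

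Of the 10 eIF4 genes 7 had a higher value in CD5 high, and the 9 besides Eif4e had values within 1.32-fold of each other between the groups. The helicase gene Eif4a1 had 180.5 FPKM in CD5 high and 178.5 FPKM in CD5 low, and its paralogue Eif4a2, the most abundant gene of the group, 190.3 FPKM in CD5 high and 207 FPKM in CD5 low (authors' deposited table, log2 fold changes 0.02 and -0.12, q = 0.986 and 0.895). The scaffold genes Eif4g1 (31.2 FPKM in CD5 high, 29.4 FPKM in CD5 low) and Eif4g3 (28.9 FPKM in CD5 high and 25.7 FPKM in CD5 low) were present at nearly equal levels. Eif4g2, whose product is a scaffold without the eIF4E site, stood at 61.7 FPKM in CD5 high and 59.5 FPKM in CD5 low. Among the cap-binding relatives Eif4e2, known as 4EHP and linked to repression, was more abundant than Eif4e (42.0 FPKM in CD5 high, 38.1 FPKM in CD5 low), and Eif4e3 was the least abundant (11.9 FPKM in CD5 high and 9.01 FPKM in CD5 low). Within eIF4F the helicase transcript exceeded the cap-binding one by far: Eif4a1 was 7.77 times Eif4e in CD5 high and 11.4 times in CD5 low. Of the 50-base stretches of Eif4a1 28.4% also occur in other annotated genes, so the size of this ratio is uncertain. The third 4E-BP gene, Eif4ebp3, had 24.99 FPKM in CD5 high and 28.0 FPKM in CD5 low (q = 0.917 in the authors' deposited table), but 65.5% of its 50-base stretches also occur in an overlapping gene on the same strand, so its level is uncertain. Eif4enif1, whose product carries eIF4E into the nucleus and to P-bodies, had 20.1 FPKM in CD5 high and 19.6 FPKM in CD5 low.

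Eif4e has an annotated start whose upstream region holds the E-box CACGTG, the site bound by Myc and its relatives, 2 times. It is shown because Eif4e is a textbook Myc target and was among the 5 members at an unadjusted p under 0.05. The stretch runs from 250 bases before to 30 bases after that start (RefSeq, GRCm38.p6, chr3:138527018-138527297, plus strand), with the E-boxes in capitals.
Eif4e: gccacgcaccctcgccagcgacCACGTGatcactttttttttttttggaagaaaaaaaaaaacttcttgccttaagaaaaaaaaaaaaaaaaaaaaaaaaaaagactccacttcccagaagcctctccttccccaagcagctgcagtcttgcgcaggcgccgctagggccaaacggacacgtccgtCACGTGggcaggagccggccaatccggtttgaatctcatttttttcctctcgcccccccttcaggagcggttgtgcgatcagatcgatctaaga
RefSeq windows of 300 bases (250 before to 50 after a start) were found for 52 of the 76 members. CACGTG, which reads the same on both strands, occurred in a window of 13 of these 52 genes (25%), of 690 of 5442 tested genes with a window (12.7%) and of 8.09% of all genes with a window. The other 12 E-box genes were Aars, Eef2, Eif1b, Eif3a, Eif3f, Eif3k, Eif4a1, Eif4g1, Eif4h, Eif5a, Iars and Tars, with log2 fold changes between -0.19 (Eif3a) and 0.68 (Aars). Myc itself had 29.5 FPKM in CD5 high and 34.7 FPKM in CD5 low (q = 0.803 in the authors' deposited table).

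The eIF2B genes had the highest median fold change of the initiation factor groups. Of the 5 subunit genes 4 had a higher value in CD5 high, with a group median log2 fold change of 0.33, and none passed the test. Eif2b3, which codes for the gamma subunit of the catalytic part, had 21.5 FPKM in CD5 high and 13.7 FPKM in CD5 low (log2 fold change 0.65, q = 0.579 in the authors' deposited table). The regulatory subunit gene Eif2b1 had 14.7 FPKM in CD5 high and 10.4 FPKM in CD5 low, and Eif2b4, another regulatory subunit gene, 28.5 FPKM in CD5 high and 22.6 FPKM in CD5 low. The gene of the catalytic epsilon subunit, Eif2b5, was the least abundant (10.9 FPKM in CD5 high, 9.35 FPKM in CD5 low). Eif2b2 was the exception, with 22.5 FPKM in CD5 high and 25.99 FPKM in CD5 low.

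The substrate of eIF2B, eIF2 itself, had no common direction. Eif2s1, which encodes the alpha subunit that stress kinases phosphorylate, had 17.4 FPKM in CD5 high and 13.0 FPKM in CD5 low (log2 fold change 0.42, q = 0.654 in the authors' deposited table). The beta subunit gene Eif2s2 was by far the most abundant of the 4, at 110.2 FPKM in CD5 high and 97.8 FPKM in CD5 low. The gamma subunit has a gene on the X chromosome, Eif2s3x, at 21.04 FPKM in CD5 high and 25.3 FPKM in CD5 low (q = 0.764 in the authors' deposited table). Its Y chromosome copy, Eif2s3y, had 17.8 FPKM in CD5 high and 19.8 FPKM in CD5 low (q = 0.943 in the authors' deposited table). Both groups thus held transcript of a Y chromosome gene, although the labels give no sex. The X copy made up 54.1% of the pair's summed FPKM in CD5 high and 56.1% in CD5 low. The coding sequences are 1419 bases each and 86.3% identical, with a longest identical run of 34 bases, and none of the 50-base stretches of Eif2s3y occurs in another gene, while 34.6% of those of Eif2s3x also occur in the gene Gm2223. The same 75 coding bases of both copies (bases 151 to 225, GENCODE M21) show how reads can be assigned, with the 11 differing bases in capitals.
Eif2s3x: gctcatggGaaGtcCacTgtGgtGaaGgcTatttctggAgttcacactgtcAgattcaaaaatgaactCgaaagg
Eif2s3y: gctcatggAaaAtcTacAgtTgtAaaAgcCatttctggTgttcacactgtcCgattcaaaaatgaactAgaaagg
For comparison, the helicase paralogues Eif4a1 and Eif4a2 are 78.0% identical over their coding sequences, with a longest identical run of 20 bases. However, 28.4% of the 50-base stretches of Eif4a1 and 13.6% of those of Eif4a2 also occur in other annotated genes. The levels of both thus depend on how such reads were assigned. The paralogues differ at 12 of the 75 bases shown (bases 145 to 219 of Eif4a1 and 151 to 225 of Eif4a2).
Eif4a1: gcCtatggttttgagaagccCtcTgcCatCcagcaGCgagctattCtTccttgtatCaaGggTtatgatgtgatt
Eif4a2: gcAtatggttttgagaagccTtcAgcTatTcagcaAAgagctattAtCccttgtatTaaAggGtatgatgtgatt

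Among the factors of start codon selection and subunit joining, Eif1a stood apart. Eif1a, one of the mouse genes for eIF1A, which steadies the scanning ribosome, had 19.1 FPKM in CD5 high and 10.9 FPKM in CD5 low (1.76-fold, log2 fold change 0.82, unadjusted p = 0.0111, q = 0.302 in the authors' deposited table). This was the smallest p of the 76 members. The X-linked eIF1A gene Eif1ax was more abundant and nearly equal, at 68.2 FPKM in CD5 high and 65.0 FPKM in CD5 low. Eif1, whose product guards start codon fidelity, was the most abundant initiation factor transcript at 795 FPKM in CD5 high and 854 FPKM in CD5 low, and its paralogue Eif1b had 89.5 FPKM in CD5 high and 83.0 FPKM in CD5 low. Eif5, the GTPase activator of eIF2, was lowest in the group by fold change, with 84.6 FPKM in CD5 high and 95.5 FPKM in CD5 low (log2 fold change -0.18, q = 0.802 in the authors' deposited table). The other 5 genes, Eif5b and Eif6 of subunit joining, Eif2a, Eif2d and Eif1ad, had log2 fold changes between -0.14 and 0.26.

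The eIF3 subunits differed little between the groups and widely among themselves. The 13 tested genes summed to 1926 FPKM in CD5 high and 1925 FPKM in CD5 low, with 7 higher and 6 lower in CD5 high and a median log2 fold change of 0.05. Their levels ran from 38.4 FPKM (Eif3b) to 335 FPKM (Eif3k) in CD5 high and from 33.6 FPKM (Eif3j2) to 324 FPKM (Eif3k) in CD5 low, so subunits of one complex differed several-fold in transcript level. The core scaffold genes Eif3a (69.6 FPKM in CD5 high, 79.4 FPKM in CD5 low), Eif3b (38.4 FPKM in CD5 high and 40.3 FPKM in CD5 low) and Eif3c (64.1 FPKM in CD5 high and 60.9 FPKM in CD5 low) were in the lower part of that range. Eif3g, with an RNA-binding domain, had the lowest fold change, at 117 FPKM in CD5 high and 137 FPKM in CD5 low (log2 fold change -0.23, q = 0.773 in the authors' deposited table). Eif3j2 had the highest, at 49.3 FPKM in CD5 high and 33.6 FPKM in CD5 low (log2 fold change 0.55, q = 0.747 in the authors' deposited table). It is a near-identical copy of Eif3j1, which holds 90.8% of its 50-base stretches, so reads of these genes could be split either way. A further row that joined Eif3j1 and Eif3j2 was marked LOWDATA and is not a member.

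**Figure D3:**
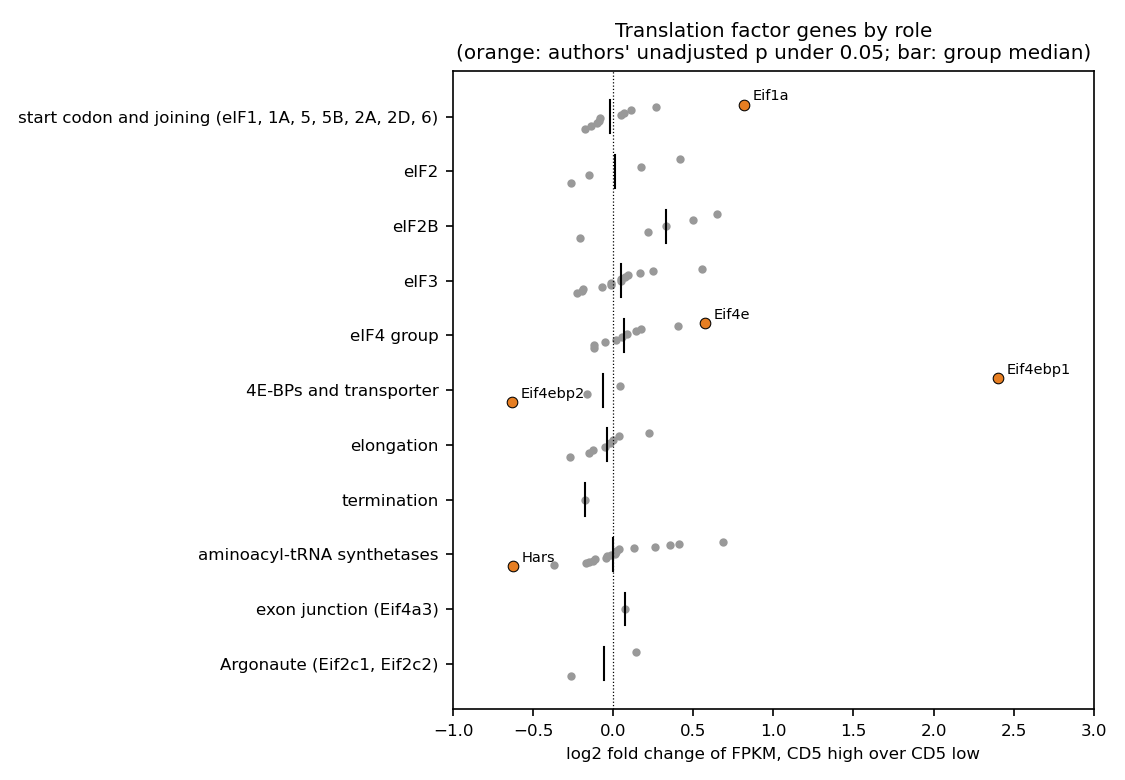
Log2 fold change of FPKM (CD5 high over CD5 low, horizontal axis) of each of the 76 genes, grouped by role, with black bars at group medians and orange points for an unadjusted p under 0.05. Group medians stay between -0.18 and 0.33, the highest being that of eIF2B, and the orange points are Eif1a, Eif4e, Eif4ebp1, Eif4ebp2 and Hars.

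Elongation factors had the highest median level of the role groups (483 FPKM over the mean of both groups) and mostly had slightly lower values in CD5 high. Eef1a1, which delivers aminoacyl-tRNA to the ribosome, had 2303 FPKM in CD5 high and 2781 FPKM in CD5 low (log2 fold change -0.27, unadjusted p = 0.1226, q = 0.623 in the authors' deposited table). It alone made up 24.1% of the summed FPKM of all members in CD5 high and 27.3% in CD5 low. Of the subunits of its exchange factor, Eef1g stood at 556 FPKM in CD5 high and 619 FPKM in CD5 low, Eef1b2 at 519 FPKM in CD5 high and 568 FPKM in CD5 low and Eef1d at 418 FPKM in CD5 high and 425 FPKM in CD5 low. Eef2, the translocase and second to Eef1a1 in this group, had 794 FPKM in CD5 high and 823 FPKM in CD5 low (q = 0.956 in the authors' deposited table). Eif5a, which helps ribosomes past proline stretches and carries the modified residue hypusine, lay the other way, with 213 FPKM in CD5 high and 183 FPKM in CD5 low (log2 fold change 0.22, q = 0.747 in the authors' deposited table). Eefsec, specific for selenocysteine, had 39.1 FPKM in both groups, and Eef1e1, a scaffold protein of the multi-synthetase complex, 21.7 FPKM in CD5 high and 21.2 FPKM in CD5 low. In all, 6 of these 8 genes had a lower value in CD5 high, with Eefsec counted at 39.10 FPKM in CD5 high and 39.14 FPKM in CD5 low. Of all tested genes with a mean of at least 100 FPKM, 424 of 785 had a lower value in CD5 high.

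The lower values of eEF1 genes ran beside those of ribosomal protein genes, which share with them the terminal oligopyrimidine signal for mTOR-dependent translation. Of 76 tested ribosomal protein genes, a group added after the data were seen, 69 had a lower value in CD5 high (median log2 fold change -0.20), 0 changed in the authors' deposited table and 2 had an unadjusted p under 0.05. Quantile normalization of the group columns brought the ribosomal protein median to -0.00, with 36.8% of these genes higher in CD5 high, and the log2 fold change of Eef1a1 to -0.14, and that of Eef1g to -0.19, against -0.15 as deposited. The step gives equal ranks equal values, and ribosomal protein genes held 475902 of 960029 FPKM of all tested genes in CD5 high. A shift shared by such abundant genes is therefore largely removed by construction, whatever its origin. Of the 50-base stretches of Eef1a1 40.4%, and of those of Eef1g 44.2%, also occur in other annotated genes, so these levels depend on how such reads were assigned. The summed FPKM of all members was 9574 in CD5 high and 10197 in CD5 low, and without Eef1a1 it was 7271 in CD5 high and 7416 in CD5 low.

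**Figure D4:**
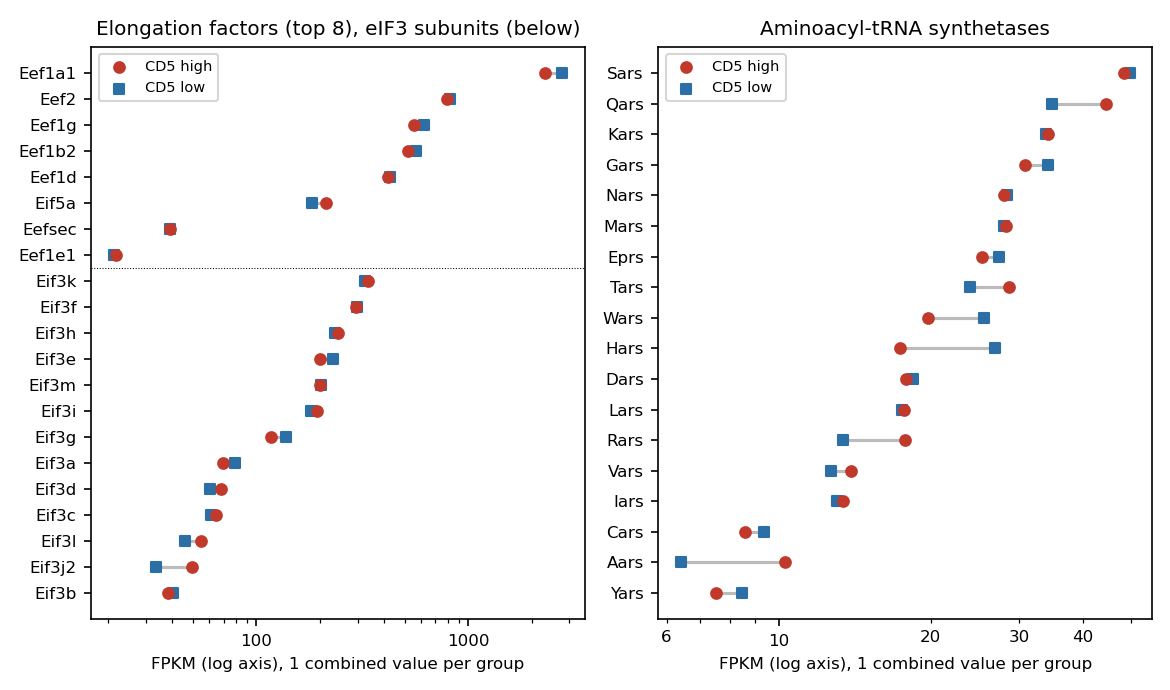
FPKM (log axis, 1 combined value per group) of the 8 elongation factor genes and 13 eIF3 subunit genes (left) and of the 18 aminoacyl-tRNA synthetase genes (right), with CD5 high as red circles and CD5 low as blue squares. Eef1a1 is the highest at 2303 FPKM in CD5 high and 2781 FPKM in CD5 low, and among synthetases Hars and Aars have the longest lines, in opposite directions.

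Release of finished chains rests on Etf1, which encodes the factor eRF1 that reads all stop codons. It had 27.8 FPKM in CD5 high and 31.3 FPKM in CD5 low (log2 fold change -0.18, q = 0.844 in the authors' deposited table). Its partner gene Gspt1 (eRF3), outside the members, had 12.2 FPKM in CD5 high and 11.5 FPKM in CD5 low.

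All 18 synthetase genes of the list were tested, and they divided evenly, with 9 higher and 9 lower in CD5 high and a median log2 fold change of -0.00. Their levels summed to 412 FPKM in each group and lay between 7.53 FPKM (Yars) and 48.2 FPKM (Sars) in CD5 high and between 6.40 FPKM (Aars) and 49.6 FPKM (Sars) in CD5 low. None changed in the authors' deposited table. Hars, for histidine, had 17.4 FPKM in CD5 high and 26.9 FPKM in CD5 low (log2 fold change -0.62, unadjusted p = 0.0422, q = 0.460 in the authors' deposited table). Its head-to-head neighbour Hars2, the mitochondrial enzyme gene, had 8.78 FPKM in CD5 high and 8.96 FPKM in CD5 low. The genes share 195 exonic bases on opposite strands, which a library that does not mark strand cannot assign. Aars, for alanine, lay the other way, at 10.3 FPKM in CD5 high and 6.40 FPKM in CD5 low (log2 fold change 0.68, unadjusted p = 0.05785, q = 0.506 in the authors' deposited table). It shares 13.5% of its 50-base stretches with Exosc6 on the same strand, which had 7.64 FPKM in CD5 high and 11.4 FPKM in CD5 low. Next by size were Rars, for arginine (17.8 FPKM in CD5 high, 13.4 FPKM in CD5 low), Wars, for tryptophan and inducible by interferon (19.7 FPKM in CD5 high and 25.6 FPKM in CD5 low), and Qars, for glutamine (44.6 FPKM in CD5 high and 34.9 FPKM in CD5 low). The 13 other synthetases had log2 fold changes between -0.17 and 0.26, with Kars, Mars, Lars, Nars, Iars and Sars within 0.04 of 0.

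Several synthetases carry near an annotated start the letters of the element through which ATF4, the transcription factor of the amino acid and stress response, acts. The motif searched was TGATGCAA, in either orientation (TTGCATCA on the other strand), which overlapped no CACGTG in these members. It occurred in the windows of 4 of the 10 synthetases that have one, Aars, Iars, Tars and Yars, and of 0 of the 42 other members with a window. Among tested genes with a window 41 of 5442 held it (0.753%), and among all genes with a window 1.03% did. The 24 members without a window, synthetases among them, were not searched. The Aars window ends at chr8:111033891, before the start of the deposited Aars locus at chr8:111033967. The 60-base stretches below (RefSeq, GRCm38.p6, each on the strand of its gene) are shown because no other member with a window held the motif, which is in capitals. They lie at chr8:111033704-111033763 (plus), chr13:49682100-49682159 (plus), chr15:11399640-11399699 (minus) and chr4:129189873-129189932 (plus), in the order printed.
Aars: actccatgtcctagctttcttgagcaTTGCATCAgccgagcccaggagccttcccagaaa
Iars: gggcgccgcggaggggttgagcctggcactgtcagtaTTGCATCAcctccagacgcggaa
Tars: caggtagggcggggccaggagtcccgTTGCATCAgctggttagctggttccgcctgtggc
Yars: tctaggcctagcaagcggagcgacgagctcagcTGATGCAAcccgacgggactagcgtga
The 4 genes had no common direction. Besides Aars, Tars had 28.6 FPKM in CD5 high and 23.9 FPKM in CD5 low (q = 0.779 in the authors' deposited table), Iars 13.4 FPKM in CD5 high and 13.1 FPKM in CD5 low, and Yars 7.53 FPKM in CD5 high and 8.47 FPKM in CD5 low. A match is a description of the letters and not of binding. Atf4 itself, singled out after its value was seen, had 105.7 FPKM in CD5 high and 122 FPKM in CD5 low (q = 0.772 in the authors' deposited table).

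The remaining members are translation factors in name only or by a different role. Eif4a3, the helicase of the exon junction complex, had 104.9 FPKM in CD5 high and 99.8 FPKM in CD5 low (q = 0.945 in the authors' deposited table). The Argonaute genes Eif2c2 (Ago2, 15.7 FPKM in CD5 high, 18.9 FPKM in CD5 low) and Eif2c1 (Ago1, 11.9 FPKM in CD5 high and 10.7 FPKM in CD5 low) act in RNA silencing, and neither changed. The kinases of eIF2 alpha (Eif2ak1 to Eif2ak4) and of eEF2 (Eef2k) had no tested row and are not analysed here, nor are Eef1a2 and Eif5a2.

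Other genes of the pathway, from lists that were chosen with earlier results of these data known, had no changed gene either. Among all tested genes 0.758% changed and 10.3% had an unadjusted p under 0.05. Lists this short may hold no changed gene at that share. Of 24 tested further cytosolic factors and scaffolds (28 listed) none changed in the authors' deposited table and 0 had an unadjusted p under 0.05, with a median log2 fold change of -0.04. The most abundant was Tpt1, at 5184 FPKM in CD5 high and 5761 FPKM in CD5 low. Of 14 tested mitochondrial factors and synthetases (26 listed) none changed and 1 had an unadjusted p under 0.05: Mrrf, for mitochondrial ribosome recycling, at 6.08 FPKM in CD5 high and 14.4 FPKM in CD5 low (log2 fold change -1.24, q = 0.457 in the authors' deposited table). Tufm, the mitochondrial elongation factor, led that list with 45.5 FPKM in CD5 high and 41.4 FPKM in CD5 low.

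Regulators upstream of translation had no changed gene either. Lists this short may show that too at the shares over all tested genes (0.758% changed, 10.3% with an unadjusted p under 0.05). Of 18 tested genes of signalling to translation none changed in the authors' deposited table, and the 1 with an unadjusted p under 0.05 was Sesn1, an inhibitor of mTORC1, at 24.4 FPKM in CD5 high and 35.1 FPKM in CD5 low (log2 fold change -0.53, q = 0.439). Rps6, the ribosomal protein phosphorylated downstream of mTOR, was the most abundant, with 1502 FPKM in CD5 high and 1813 FPKM in CD5 low. Of 15 tested targets of the integrated stress response none changed and 0 had an unadjusted p under 0.05, with a median log2 fold change of 0.03 and Ddit3 at 119 FPKM in CD5 high and 122 FPKM in CD5 low. Of 18 tested genes of Myc and ribosome biogenesis none changed and 12 had lower values in CD5 high, against 50.9% of all tested genes. In that list Nop2, an rRNA methyltransferase, had 11.5 FPKM in CD5 high and 6.16 FPKM in CD5 low (q = 0.425 in the authors' deposited table). Polr1a, the largest subunit of RNA polymerase I, had 7.71 FPKM in CD5 high and 11.8 FPKM in CD5 low (q = 0.408 in the authors' deposited table). Npm1, a nucleolar chaperone, was the most abundant, with 304 FPKM in CD5 high and 344 FPKM in CD5 low.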

How the data were processed

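RNA was measured in 2 CD5 high and 2 CD5 low libraries. Per the labels' protocols, lysed cells gave cDNA that was amplified and made into Nextera XT libraries, a kit that does not mark strand. The submitters' processing notes name TopHat 1.0.0, Cufflinks and mm10; further settings are not stated in those notes. The authors deposited 1 FPKM value per group, and for each gene a log2 fold change (CD5 high over CD5 low), a p-value, a q-value and the score of the test in columns that, per the file headers, are named as in Cuffdiff output. Of 7404 gene rows 7252 had status OK and 7237 a finite fold.

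Computed here with Python 3.11.15 and pandas 2.3.3 were member counts, medians, sums, ratios, quantile normalization and renewed Benjamini-Hochberg adjustment, first tested on simulated data. Shared 50-base stretches and coding sequences came from GENCODE M21, promoter windows from RefSeq. With 1 value per group, the only test is the authors' own. Whether the libraries of a group come from different animals is not labelled, and the authors' p-values may reflect technical spread alone.

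The members and lists were chosen with earlier results of these data known. Genes named were members with an unadjusted p under 0.05, the highest, lowest and most abundant of each role, paralogue pairs, and all of eIF2, eIF2B and eIF4F. From the lists of translation-related genes, those with an unadjusted p under 0.05 and the most abundant were named. The rule also covered the lists of cell type and cell cycle markers, but these are given mainly by counts and sums, and many of their genes with an unadjusted p under 0.05 are not named.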

Additional observations from a re-analysis of the deposited data

How the results depend on the processing

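The count of changed members stayed at 0 with q under 0.10. It was also 0 with adjustment renewed without marker genes of other cell types (smallest adjusted p of a member 0.314). The same held over genes with a mean of at least 20 FPKM (smallest 0.514). That limit left out Eif1a, Eif4ebp1 and Eif4e, the 3 members higher in CD5 high at an unadjusted p under 0.05. The marker lists hold changed genes, and leaving those out tends to raise the adjusted p of the rest. These 2 settings could therefore hardly add a changed member. At an unadjusted p under 0.05 the count was 5 of 76. The median log2 fold change lay between -0.04 and 0.05 under all 11 alternatives. It was -0.02 over members with a mean of at least 20 FPKM, 23 of 53 of which had the higher value in CD5 high. The count of 40 members with a higher value became 41 after centring and 39 after quantile normalization. Leaving out the Argonaute genes, or the 17 members that share over 10% of their 50-base stretches with other genes, alternatives chosen after seeing the data, moved the median by less than 0.1. The titles number the libraries 3 and 4 in both groups, so they may be paired. Whether the authors' test used such a pairing is not stated. No paired analysis was possible because the columns hold 1 combined value per group, and leaving out single libraries was not run for the same reason. Depth is unknown, and the members whose lower value was under 10 FPKM number 6, Eif4ebp1 and Aars among them. Both were under 6.82 FPKM in CD5 low and thus among the tested genes through CD5 high alone.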
